A study of Chlamydomonas reinhardtii with 9 samples.

Results

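Among 17301 Chlamydomonas reinhardtii transcripts, 291 without a gene symbol were low after 12 h without iron and high both before and after. They were chosen from the deposited table by 3 conditions. The gene name was empty, the mean over times was at least 1 RPKM (reads scaled for transcript length and library size), and log2(RPKM + 1) at 12 h was at least 1.5 below that at 0 h and at 24 h, with both columns of a time averaged. Of 14069 transcripts without a symbol, 9735 reached that mean level, so the members were 2.99% of them. The same thresholds were met by 118 of 2977 transcripts with a symbol (3.96%) and by 409 of all 12712 (3.22%). The values at 0, 12 and 24 h chose the members and are given only as a description, without a test.

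The cells were of strain CC-4532, kept in continuous light in Tris-acetate-phosphate (TAP) medium, in which acetate feeds the cells beside photosynthesis. They were taken in mid-logarithmic growth, washed in TAP without Fe-EDTA, the iron source, and moved to fresh TAP without it. RNA was sequenced at 9 times: at the start (0 h), early (0.5, 1 and 2 h), midway (4, 8 and 12 h) and late (24 and 48 h). Each time has 2 columns of values, which the design text calls biological duplicates, although 1 sample is registered per time, so a p-value takes its spread from these columns alone, which may be technical. No iron-supplied culture was among the samples at any time, so the age of the culture, the fresh medium and the loss of iron cannot be told apart. RNA came from whole cultures, in which fewer cells of a kind and less RNA per cell cannot be told apart either.

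A green alga makes ribosomes in 3 compartments. Ribosomes of the cytosol are assembled in the nucleolus by a large set of helper proteins, such as methyltransferases, helicases and chaperones of single ribosomal proteins, that are absent from the finished particle. Plastid ribosomes resemble those of bacteria, and most of their proteins are made in the cytosol from nuclear genes and imported. They translate subunits of the photosynthetic complexes, which hold much of the iron of the cell. Genes without a symbol are those to which no curator had given a name, and few carry any note on function. Here 258 of the 291 members had no description, and no sequence is shown because none was at hand.

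The libraries held 13.4 to 33.7 M reads, as recovered from the RPKM values. Duplicates of a time correlated at 0.9817 to 0.9893 across transcripts, which are not independent replicates. The 291 members rested on a median of 9511 recovered reads each over all columns, and 6 of them on fewer than 300. For these 6 the recovery implied lengths of 1.001 to 42.8 bases, so their reads may be underestimated. Their mean level over times was 1.15 to 543 RPKM with a median of 13.1, against a median of 5.21 RPKM for all symbol-less transcripts with at least 1 RPKM. Applied to duplicate 1 alone the conditions chose 311 transcripts and to duplicate 2 alone 278, and 222 were in both lists, which is 71.4% of the list from duplicate 1 and 79.9% of that from duplicate 2. In 286 members both 12 h values lay under all values at 0 and 24 h, as they did in 38.4% of all transcripts, a count that the choice largely sets. The scale matters for membership. Across all tested transcripts the median log2 value at 12 h was 0.17 lower than at 0 h and at 24 h it was 0.31 higher, and after each column was centred on its median 116 of the 291 still met the conditions.

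The members did not fall at 12 h alone. Their median log2 change from 0 h was -0.10 after 0.5 h, -0.07 after 1 h, -0.06 after 2 h, -0.50 after 4 h, -1.41 after 8 h, -2.05 after 12 h, -0.04 after 24 h and -0.89 after 48 h. Over the same times the median of all transcripts with at least 1 RPKM was 0.14, 0.18, 0.06, -0.06, -0.17, -0.14, 0.28 and 0.14. The decline was thus under way at 4 h, deep at 8 h and followed by a high value at 24 h and a lower one at 48 h. At 8 h, 224 members were at least 1 log2 unit below 0 h (14.7% of all transcripts were), and at 48 h 126 were (16.4% of all transcripts). At 48 h 12 members were at least 1 log2 unit above 0 h (19.1% of all transcripts were). These counts and the medians above are measured from 0 h, which the choice required to be high. They are therefore shaped by the choice and are a description only. Only 25 of 291 stayed within 1 log2 unit of 0 h, or above it, at 0.5, 1, 2, 4, 8 and 48 h, so the working name of genes that dip at 12 h only was not borne out for most. The lowest of the 9 time means was at 12 h in 210 members, at 48 h in 51 and at 8 h in 23.

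**Figure D1:**
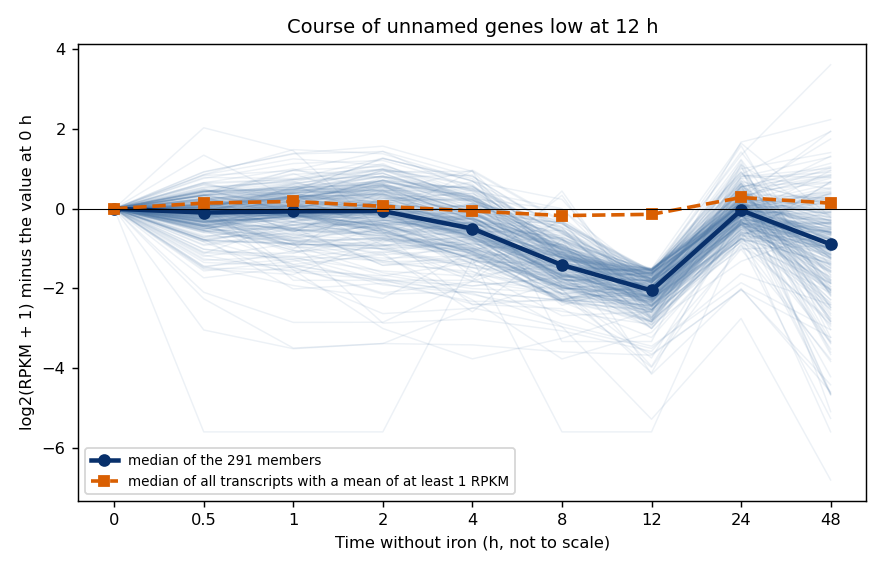
Change of each member from 0 h (thin lines, log2(RPKM + 1), mean of 2 duplicates) at 9 times, with the median of the 291 members (circles) and of all transcripts with at least 1 RPKM on average (squares). The median of the members is -1.41 after 8 h and -2.05 after 12 h, near 0 after 24 h and -0.89 after 48 h, where the lines spread both ways.

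The share of all RPKM that the members took shows the same course. Together they made up 1.52 and 1.37% of the summed RPKM in the duplicates at 0 h, 0.249 and 0.227% by 12 h, 1.31 and 1.34% by 24 h and 0.835 and 0.798% by 48 h. The median level of a member was 17.8 RPKM at 0 h, 16.1 after 0.5 h, 16.1 after 1 h, 16.7 after 2 h, 11.7 after 4 h, 5.32 after 8 h, 3.05 after 12 h, 17.9 after 24 h and 8.51 after 48 h.

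Tests were confined to the times that the choice had not used. All 18 columns of 13077 transcripts, the 291 members among them, were fitted with limma-trend on log2(RPKM + 1), and calls needed a Benjamini-Hochberg adjusted p under 0.05 with a change of 2-fold or more. That scale understates changes of weakly expressed transcripts. By 4 h few members had changed by that measure. Against 0.5 to 2 h, 12 members were lower at 4 h (2.46% of all tested transcripts were) and 0 were higher (0.505%). At an unadjusted p under 0.05, 210 members differed between these times, of which 198 were not called. The share of all tested transcripts at this looser threshold is not given, so the count does not set the members apart. The median change of the members was -0.44 and that of all tested transcripts was -0.21.

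By 8 h most members had fallen. Against 0.5 to 2 h, 197 of 291 were lower (11.7% of all tested transcripts) and 2 were higher (2.7%), with a median change of -1.40 against -0.24 for all tested transcripts. Between 4 and 8 h alone, 126 members were lower at 8 h (4.63% of all tested) and 3 were higher (1.67%), with medians of -0.96 and 0.00. The 8 h columns took no part in the choice, but they neighbour the 12 h columns in time. Likewise the 0.5 to 2 h columns, the reference here and in tests at 4 and 48 h, neighbour 0 h, which the choice required to be high. With a pseudocount of 5 RPKM, which weights abundant transcripts more, 128 members were lower at 8 h than at 0.5 to 2 h and 52 lower than at 4 h. The shares of all tested transcripts above do not apply to this setting, for which none are given.

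At 48 h the members had parted. Against 0.5 to 2 h, 122 were lower (41.9%, beside 17.9% of all tested transcripts) and 146 were not called. Only 23 were higher, a smaller share (7.9%) than among all tested transcripts (15.3%). The medians were -0.82 and 0.01. Against 8 h, 103 were higher at 48 h (35.4%, beside 20.6% of all tested transcripts) and 46 were lower (15.8%, beside 11.5%). Here the medians were 0.64 and 0.33. Of the 197 members that were lower at 8 h than at 0.5 to 2 h, 72 were also called lower at 48 h, 114 were not called and 11 were higher. Of the 92 members not called at 8 h, 49 were lower at 48 h, 31 were not called and 12 were higher. With a pseudocount of 5 RPKM, 77 members were lower at 48 h than at 0.5 to 2 h, and 66 were higher and 20 lower than at 8 h, again without a share of all tested transcripts. Of the 2 members higher at 8 h, 1 was lower at 48 h and 1 was not called.

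**Figure D2:**
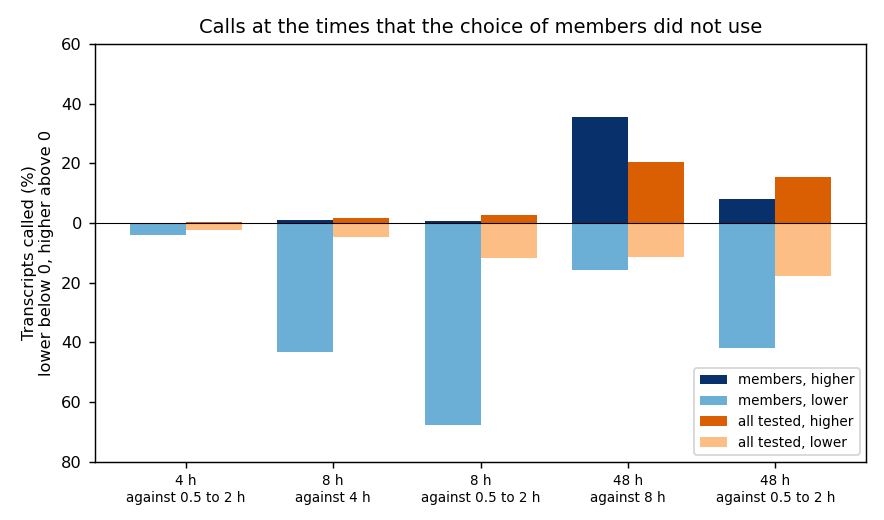
Percentage of the 291 members (blue) and of all 13077 tested transcripts (orange) called higher (above 0) or lower (below 0) in 5 comparisons of times, by limma-trend (adjusted p under 0.05, change of 2-fold or more). At 8 h against 0.5 to 2 h, 67.7% of the members are lower, against 11.7% of all tested transcripts.

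**Figure D3:**
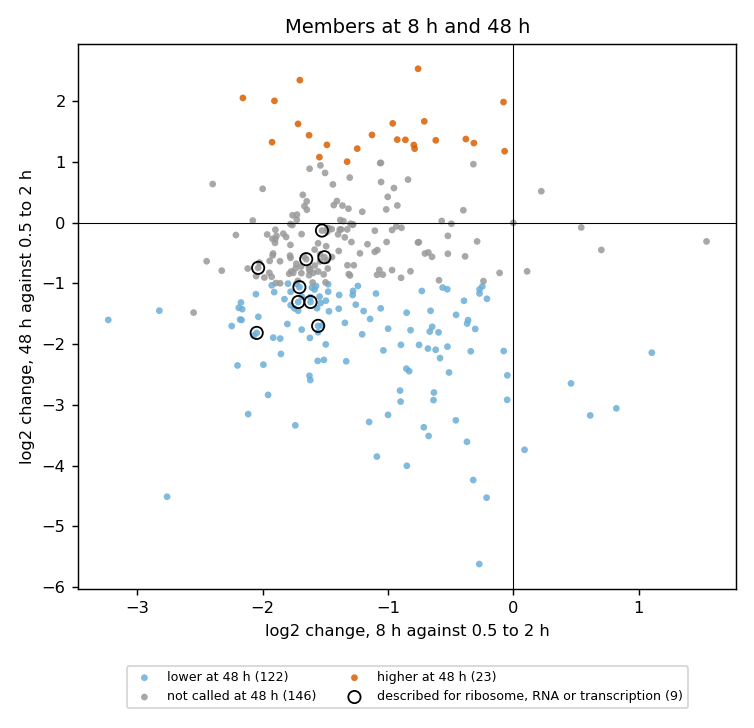
Log2 change of each member at 8 h (horizontal) and at 48 h (vertical), both against 0.5 to 2 h, coloured by the call at 48 h. Open circles mark the 9 members whose description names ribosomes, RNA or transcription, which all lie left of -1.5.

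Notes on function were scarce. A description was present for 33 members (11.3%), close to the 10.1% of all 9735 symbol-less transcripts at this level, and in 9 of the 33 it held generic words only. Of 8 symbol-less transcripts at this level that were described for ribosome assembly or rRNA processing, 4 were members, and so was 1 of 2 placed under ribosomal proteins by the words of its note. Of the others, 1 of 21 transcripts of tRNA and translation, 2 of 52 of RNA binding and helicases, 1 of 50 of transcription and chromatin and 5 of 142 of metabolism were members. None were among 20 methyltransferases outside these classes, 31 of protein folding, import and proteolysis, 23 of transport, 72 kinases and phosphatases or 6 of DNA replication and repair. A further 19 of 555 had other descriptions. These counts follow from the choice of members and were not tested.

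The 9 members of the ribosome, translation, RNA and transcription classes were pooled without a prior plan. They were low together at 8 h, a time the choice had not used, but which neighbours 12 h, which it had. The reference of 0.5 to 2 h likewise neighbours 0 h. All 9 were lower at 8 h than at 0.5 to 2 h, by 1.51 to 2.05 on the log2 scale, beside 67.7% of all members and 11.7% of all tested transcripts. At 4 h their changes against 0.5 to 2 h were -0.50 to -0.79, under 2-fold in each, with limma adjusted p-values of 0.0001 to 0.0063. Between 4 and 8 h 5 of 9 were called lower, beside 43.3% of all members and 4.63% of all tested transcripts. At 48 h, 5 of 9 were still lower than at 0.5 to 2 h and the other 4 were not called, beside 41.9% of all members and 17.9% of all tested transcripts that were lower. Against 8 h, 3 of 9 were higher at 48 h, beside 35.4% of all members and 20.6% of all tested transcripts. The last 3 counts lie near the shares of all members. With a pseudocount of 5 RPKM, 7 of the 9 calls at 8 h and 3 of the 5 at 48 h against 0.5 to 2 h kept the 2-fold size. The 5 calls between 4 and 8 h and the 3 between 8 and 48 h did not, and median centring left 3 and 1 of these.

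Pescadillo, a nucleolar protein, is needed for the large ribosomal subunit in yeast and animals. Its relative among the members, Cre01.g064550, had 17.4 and 21.3 RPKM at 0 h, 10.7 and 15.5 by 0.5 h, 16.6 and 20.2 by 1 h, 13.9 and 21.1 by 2 h, and 8.68 and 11.04 by 4 h. Thereafter it had 3.67 and 4.71 by 8 h, 2.45 and 2.72 by 12 h, 14.7 and 18.8 by 24 h, and 5.22 and 6.57 after 48 h. Both duplicates declined at 4, 8 and 12 h, stood near the starting level at 24 h and were low again at 48 h. The change at 8 h against 0.5 to 2 h was -1.72 ± 0.09 (log2 ± SE, limma adjusted p = 7.2e-09) and at 48 h -1.31 ± 0.09 (limma adjusted p = 1.3e-08). The change at 48 h was -0.95, under 2-fold, with a pseudocount of 5 RPKM. MAK16 is another nucleolar factor of the large subunit in yeast. The MAK16-like transcript Cre02.g145231 had 43.1 and 27.3 RPKM at 0 h, 30.5 and 27.9 by 0.5 h, 46.3 and 28.1 by 1 h, 28.999 and 26.1 by 2 h, and 17.8 and 16.9 by 4 h. Its later values were 10.2 and 7.46 by 8 h, 6.97 and 5.99 by 12 h, 26.7 and 26.97 by 24 h, and 16.3 and 12.4 after 48 h. Its duplicates differed at 0 and 1 h, but all values at 8 and 12 h lay under all values of the other times. It fell at 8 h by 1.71 on the log2 scale (limma adjusted p = 1.4e-07).

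Methylation of rRNA is a further step of ribosome making. Cre01.g042900, described as the dimethyltransferase of 18S rRNA, the RNA of the small subunit, had 25.3 and 19.04 RPKM at 0 h, 16.7 and 20.2 by 0.5 h, 26.03 and 20.4 by 1 h, 23.02 and 24.001 by 2 h, and 14.1 and 12.01 by 4 h. At the later times it had 6.37 and 5.97 by 8 h, 5.16 and 3.63 by 12 h, 17.7 and 17.004 by 24 h, and 14.6 and 13.2 after 48 h. It was called higher at 48 h than at 8 h, by 1.05 ± 0.14 (limma adjusted p = 1.8e-05), which median centring reduced to 0.71, under 2-fold. RimM assists maturation of the small subunit in bacteria. The RimM-like Cre03.g191950 had 7.93 and 8.496 RPKM at 0 h, 6.88 and 8.42 by 0.5 h, 9.21 and 8.54 by 1 h, 7.05 and 9.55 by 2 h, and 4.88 and 5.54 by 4 h. It then stood at 1.999 and 2.42 by 8 h, 2.04 and 2.28 by 12 h, 8.18 and 10.1 by 24 h, and 6.67 and 8.29 after 48 h. Its values at 8 and 12 h were about equally low, and at 48 h it did not differ detectably from 0.5 to 2 h, with a change of -0.13 ± 0.09 (limma adjusted p = 0.21). The difference in the 48 h change between these 4 transcripts was not tested.

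The yeast protein Rrb1 binds the ribosomal protein Rpl3 before assembly. The member with a similar WD-40 repeat protein, Cre17.g724850, had 35.5 and 31.7 RPKM at 0 h, 39.04 and 46.3 by 0.5 h, 49.7 and 42.9 by 1 h, 51.1 and 54.6 by 2 h, and 31.7 and 30.9 by 4 h. The later samples gave 16.1 and 14.5 by 8 h, 11.01 and 10.8 by 12 h, 34.7 and 35.9 by 24 h, and 13.9 and 13.7 after 48 h. It stood above its starting level at 1 and 2 h and low at 8, 12 and 48 h, with a change of -1.70 ± 0.09 at 48 h against 0.5 to 2 h (limma adjusted p = 9.4e-10). Srp40 of yeast is a nucleolar phosphoprotein. Cre01.g055400, which holds the domain found at its C-terminus, had 14.9 and 17.2 RPKM at 0 h, 15.7 and 17.3 by 0.5 h, 23.9 and 16.8 by 1 h, 18.9 and 21.5 by 2 h, and 10.5 and 10.8 by 4 h. The remaining times gave 4.31 and 3.33 by 8 h, 2.08 and 1.799 by 12 h, 11.2 and 14.3 by 24 h, and 4.82 and 4.45 after 48 h. Among the 9 members it had the largest changes against 0.5 to 2 h at 8 h, -2.05 ± 0.13 (limma adjusted p = 4.2e-08), and at 48 h, -1.81 ± 0.13 (limma adjusted p = 3.2e-08). Cre12.g539100, a DEAD box RNA helicase, a kind of enzyme that unwinds or remodels RNA, was 26.1 and 21.3 RPKM at 0 h, 8.64 and 7.27 by 8 h, 5.12 and 3.56 by 12 h, 23.4 and 20.5 by 24 h and 10.2 and 9.99 by 48 h. Its change at 8 h against 0.5 to 2 h was -1.62 ± 0.12 (limma adjusted p = 7.8e-08).

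Cre16.g684850, a possible tRNA methyltransferase, had 10.3 and 9.65 RPKM at 0 h, 6.05 and 8.02 by 0.5 h, 8.57 and 9.04 by 1 h, 8.63 and 9.099 by 2 h, and 6.32 and 4.19 by 4 h. Thereafter it had 1.42 and 1.07 by 8 h, 1.71 and 1.66 by 12 h, 10.5 and 8.28 by 24 h, and 4.51 and 4.45 after 48 h. It was lower at 8 h than at 4 h, with a change of -1.46 ± 0.16 (limma adjusted p = 1.5e-05), and higher again at 48 h than at 8 h, by 1.29 ± 0.16 (limma adjusted p = 6.4e-06). With a pseudocount of 5 RPKM these changes were -0.71 and 0.60, under 2-fold, and after median centring the later one was 0.95. Cre13.g587000, a putative AATF transcription factor with a TRAUB domain, was weaker, at 6.06 and 5.13 RPKM at 0 h, 1.10 and 1.26 by 8 h, 1.63 and 0.986 by 12 h, 6.35 and 4.96 by 24 h and 3.52 and 2.86 by 48 h. Its low values at 8 and 12 h overlapped. Outside the keyword classes, and chosen after its values were seen, Cre15.g647200 is described as a small GTPase like ERA, which in bacteria binds the small subunit's rRNA. It had 7.01 and 6.24 RPKM at 0 h, 6.46 and 7.76 by 0.5 h, 10.004 and 8.25 by 1 h, 9.04 and 8.57 by 2 h, and 4.82 and 4.36 by 4 h. Its later values were 1.78 and 1.695 by 8 h, 1.08 and 0.884 by 12 h, 9.16 and 8.36 by 24 h, and 8.54 and 7.58 after 48 h. At 48 h both duplicates were within the range of 0.5 to 2 h, and the change was -0.04 ± 0.09 (limma adjusted p = 0.71). Cre03.g149500 carries the C-terminal domain of programmed cell death protein 2 and was likewise chosen after its values were seen. Its 7.17 and 6.52 RPKM at 0 h compared with 1.53 and 1.29 by 8 h, 1.37 and 1.13 by 12 h, 5.48 and 6.96 by 24 h and 2.62 and 2.80 by 48 h.

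**Figure D4:**
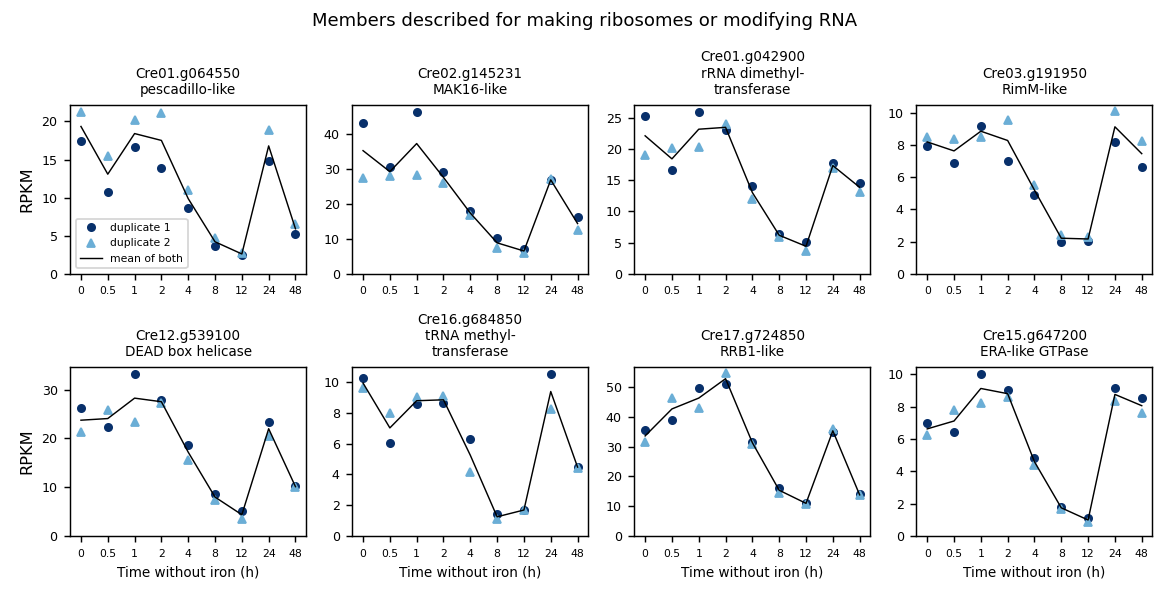
RPKM of 8 members described for making ribosomes or modifying RNA, at 9 times, with each duplicate as a point (circles and triangles) and the mean of both as a line. Values decline at 4 and 8 h, are lowest at 8 or 12 h, are high at 24 h and differ among the 8 after 48 h.

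Metabolic enzymes among the members were few, and 3 of the 5 were called lower at 48 h than at 0.5 to 2 h, beside 41.9% of all members and 17.9% of all tested transcripts. Cre01.g004300, an asparagine synthase, which makes asparagine with nitrogen from glutamine, was the most abundant, with 198 and 174 RPKM at 0 h, 274 and 227 by 0.5 h, 284 and 234 by 1 h, 255 and 213 by 2 h, and 172 and 142 by 4 h. At the later times it had 86.6 and 72.5 by 8 h, 34.9 and 28.2 by 12 h, 157 and 128 by 24 h, and 49.1 and 36.1 after 48 h. It was lower at each sampling from 2 to 12 h than at the one before and at 48 h stood at -2.52 ± 0.06 against 0.5 to 2 h (limma adjusted p = 1.2e-12). Cre08.g360800, of the haloacid dehalogenase-like hydrolases, had 32.5 and 37.7 RPKM at 0 h, 54.3 and 45.9 by 0.5 h, 35.5 and 29.5 by 1 h, 26.5 and 23.8 by 2 h, and 20.7 and 20.4 by 4 h. It then stood at 16.5 and 15.4 by 8 h, 8.96 and 7.96 by 12 h, 34.8 and 26.7 by 24 h, and 73.4 and 64.9 after 48 h. Its 48 h values were the highest of all times, and exceeded those at 8 h by 2.05 ± 0.12 (limma adjusted p = 5.4e-09). Cre02.g110650, with some likeness to bacterial family 8 glycosyltransferases, had 45.3 and 54.995 RPKM at 0 h, 41.9 and 33.4 by 0.5 h, 25.5 and 21.9 by 1 h, 15.2 and 15.04 by 2 h, and 11.3 and 12.2 by 4 h. The later samples gave 11.4 and 10.5 by 8 h, 9.49 and 9.26 by 12 h, 41.9 and 35.8 by 24 h, and 43.99 and 33.7 after 48 h. This transcript declined as early as 1 and 2 h, was level at 4 to 12 h and was again near its 0 h level at 24 and 48 h.

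Both other enzymes ended low, and were chosen for the text after their values were seen. Cre03.g177600, described as a dehydrogenase with FAD or FMN, was 17.1 and 13.5 RPKM at 0 h, 5.46 and 4.57 by 8 h, 1.40 and 1.20 by 12 h, 18.6 and 13.5 by 24 h and 2.10 and 1.47 by 48 h. Its change at 48 h against 0.5 to 2 h was -2.01 ± 0.10 (limma adjusted p = 1e-09). Cre03.g179500, a prolyl 4-hydroxylase, of the enzymes that make the hydroxyproline of cell wall proteins, had 36.8 and 38.6 RPKM at 0 h, 2.86 and 4.54 by 0.5 h, 1.89 and 2.904 by 1 h, 2.77 and 2.66 by 2 h, and 2.27 and 2.99 by 4 h. The remaining times gave 1.997 and 2.43 by 8 h, 1.801 and 2.27 by 12 h, 8.38 and 8.64 by 24 h, and 0.983 and 0.643 after 48 h. Here the 0 h level stood alone: all later values but those at 24 h were under 5 RPKM, and the values at 8 and 12 h overlapped. The hydroxyproline-rich glycoprotein Cre06.g254100, of a class of algal wall proteins and likewise chosen after its values were seen, was at 4.42 and 3.63 RPKM at 0 h, 2.35 and 2.45 by 8 h, 0.378 and 0.462 by 12 h, 4.70 and 4.98 by 24 h and 0.166 and 0.217 by 48 h.

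Of the remaining described members, Cre19.g751850, an oxysterol-binding protein of a family that binds and moves sterols, had 73.3 and 100.2 RPKM at 0 h, 76.9 and 81.2 by 0.5 h, 74.5 and 77.7 by 1 h, 91.7 and 72.6 by 2 h, and 43.4 and 32.9 by 4 h. Thereafter it had 22.7 and 17.9 by 8 h, 18.2 and 14.6 by 12 h, 54.003 and 46.9 by 24 h, and 55.7 and 54.8 after 48 h. It was among the 12 members called lower at 4 h than at 0.5 to 2 h, with a change of -1.04 ± 0.14 (limma adjusted p = 8.4e-05), which was under 2-fold after median centring, at -0.80, and without duplicate 2 of 4 h, at -0.88. Cre12.g502300, a hypothetical protein, had 54.5 and 61.8 RPKM at 0 h, 49.8 and 46.1 by 4 h, 16.97 and 17.9 by 8 h, 12.9 and 16.3 by 12 h, 47.4 and 57.8 by 24 h and 28.5 and 32.1 by 48 h. Over all 33 described members, 23 were lower at 8 h than at 0.5 to 2 h, beside 67.7% of all members and 11.7% of all tested transcripts. At 48 h 14 were lower, beside 41.9% of all members and 17.9% of all tested transcripts, and 1 was higher, beside 7.9 and 15.3%.

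Plastid ribosomal proteins offered the comparison for timing. Of 34 such genes, recognised by their symbols, 29 (85.3%) met the thresholds at 0, 12 and 24 h that chose the members, as did 6 of 19 named genes of ribosome assembly and rRNA processing (31.6%), 0 of 74 cytosolic ribosomal proteins, 0 of 37 mitochondrial ones and 0 of 4 aminoacyl-tRNA synthetases. The median log2 change of the plastid genes from 0 h was 0.43 after 2 h, 0.42 after 4 h, -0.86 after 8 h, -2.36 after 12 h, -0.18 after 24 h and -0.72 after 48 h. Against the members' -0.50 after 4 h and -1.41 after 8 h, the plastid genes stood higher at both times. Named genes of ribosome assembly had -0.28 after 4 h, -1.34 after 8 h, -1.43 after 12 h and 0.05 after 24 h. In the tests at 8 h against 0.5 to 2 h, 17 of 34 plastid ribosomal genes were lower and 1 was higher. Of 19 genes of ribosome assembly, 17 were lower, beside 11.7% lower and 2.7% higher among all tested transcripts. At 8 h against 4 h the order was reversed. There 29 of 34 plastid genes were lower (median -1.30) and 9 of 19 assembly genes (median -0.90), beside 4.63% of all tested transcripts. The 74 genes of cytosolic ribosomal proteins, on whose products the nucleolar assembly factors act, had a median change of -0.10 at 8 h against 0.5 to 2 h.

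**Figure D5:**
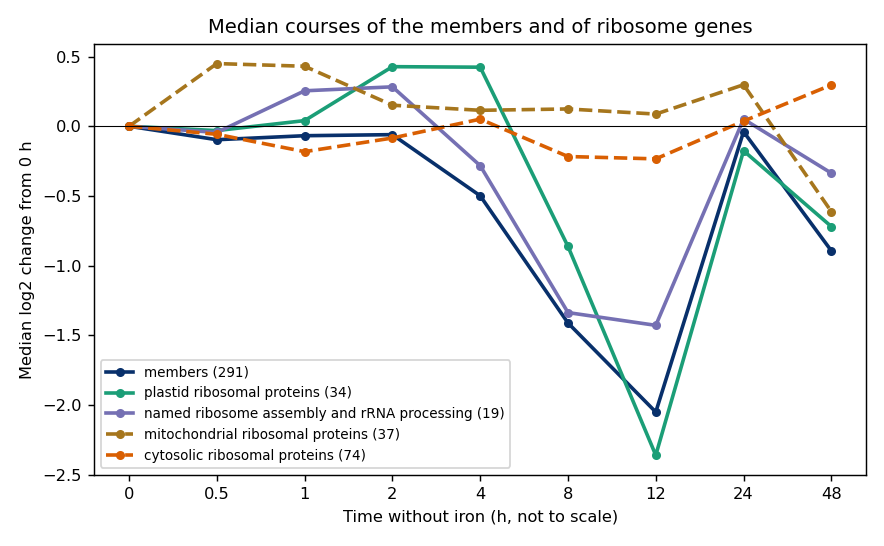
Median log2 change from 0 h of the members and of 4 lists of named ribosome genes, with the number of genes in brackets. Plastid ribosomal proteins stand above 0 after 4 h and reach -2.36 after 12 h, the members and the assembly genes are already low at 8 h, and cytosolic and mitochondrial ribosomal proteins stay within 0.5 of 0 up to 24 h.

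Single members differed widely in their likeness to the plastid course. Over the 6 times that the choice had not used, the correlation of a member with the median plastid ribosomal course had a median of 0.69 and ran from -0.69 to 1.00. It exceeded 0.8 in 85 members (29.2%), against 1079 of 12712 transcripts (8.49%), and was below 0 in 32. These correlations rest on 6 time means that share the same libraries and are a description only. Over all 9 times, the choice's own 0, 12 and 24 h among them, Cre02.g084000 and Cre13.g580850, which lack a description, had the highest correlations with the plastid course, 1.00 each. Cre02.g084000 had 287 and 400.1 RPKM at 0 h, 259.97 and 424 by 0.5 h, 303 and 440.5 by 1 h, 445 and 549 by 2 h, and 460.1 and 546 by 4 h. Its later values were 181 and 219.95 by 8 h, 55.95 and 68.97 by 12 h, 256 and 332 by 24 h, and 200.02 and 259 after 48 h. Duplicate 2 was higher throughout, and both were highest at 2 and 4 h. Cre13.g580850 had 185 and 257 RPKM at 0 h, 180.4 and 273 by 0.5 h, 192 and 268 by 1 h, 333 and 365 by 2 h, and 299 and 328 by 4 h. At the later times it had 106 and 107 by 8 h, 26.8 and 26.4 by 12 h, 165 and 192 by 24 h, and 103 and 124 after 48 h. It fell between 4 and 8 h by 1.55 on the log2 scale (limma adjusted p = 4.3e-06). The lowest correlation over all 9 times was -0.13, in Cre07.g346350, with 25.997 and 50.4 RPKM at 0 h, 19.3 and 22.6 by 0.5 h, 8.35 and 13.9 by 1 h, 4.32 and 6.34 by 2 h, and 5.56 and 6.33 by 4 h. It then stood at 9.87 and 10.3 by 8 h, 11.7 and 12.1 by 12 h, 35.4 and 37.8 by 24 h, and 40.8 and 50.9 after 48 h. It was lowest at 2 to 4 h and was higher at 8 and 12 h, so that 12 h was no minimum in its course. Over the 6 times that the choice had not used, the correlations of the ribosome assembly members were 0.83 for Cre01.g064550, 0.70 for Cre02.g145231, 0.69 for Cre01.g042900 and 0.53 for Cre03.g191950.

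The 118 named transcripts that met the same thresholds had a median log2 change from 0 h of -0.15 after 4 h, -1.16 after 8 h, -2.29 after 12 h, -0.17 after 24 h and -0.94 after 48 h. By the same keywords they were 30 of 148 expressed named transcripts under ribosomal proteins (20.3%), 6 of 19 under ribosome assembly (31.6%) and 10 of 93 under tRNA and translation (10.8%). They were 14 of 268 under protein folding, import and proteolysis (5.22%), 8 of 570 under metabolism (1.4%) and 37 of 1267 with other descriptions (2.92%), beside 3.96% of all named transcripts. These shares were not tested. Of the 30 under ribosomal proteins, 29 were the plastid genes given above, so that share largely repeats theirs.

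The largest called changes were in members without a description of function. At 4 h the largest falls against 0.5 to 2 h were in Cre03.g176850 and Cre03.g150750. Cre03.g176850 had 32.2 and 61.2 RPKM at 0 h, 224 and 163 by 0.5 h, 128 and 131 by 1 h, 27.4 and 33.9 by 2 h, and 5.83 and 10.1 by 4 h. The later samples gave 7.73 and 10.1 by 8 h, 7.72 and 13.3 by 12 h, 39.8 and 44.7 by 24 h, and 32.1 and 27.1 after 48 h. It stood above 0 h at 0.5 and 1 h and then stayed at a low level at 4, 8 and 12 h, with -3.41 ± 0.21 at 4 h (limma adjusted p = 9.3e-07). Cre03.g150750 had 14.7 and 43.3 RPKM at 0 h, 36.6 and 26.4 by 0.5 h, 7.79 and 10.96 by 1 h, 2.06 and 3.42 by 2 h, and 1.25 and 1.16 by 4 h. The remaining times gave 1.99 and 2.31 by 8 h, 4.15 and 4.12 by 12 h, 15.9 and 17.6 by 24 h, and 10.7 and 10.6 after 48 h. It was lowest at 4 h, and its duplicates differed widely at 0 h, a time the choice used.

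Between 4 and 8 h, Cre18.g748500 and Cre18.g748800 had the largest called rises. Cre18.g748500 had 49.5 and 57.01 RPKM at 0 h, 25.5 and 22.3 by 0.5 h, 49.6 and 35.6 by 1 h, 78.7 and 39.3 by 2 h, and 13.4 and 17.3 by 4 h. Thereafter it had 97.8 and 47.7 by 8 h, 6.38 and 8.15 by 12 h, 47.1 and 51.97 by 24 h, and 4.13 and 3.34 after 48 h. It alternated, with low values at 4, 12 and 48 h and higher ones at all other times, and 8 h exceeded 4 h by 2.09 ± 0.30 (limma adjusted p = 0.00012). Cre18.g748800 had 82.4 and 98.8 RPKM at 0 h, 26.8 and 26.3 by 0.5 h, 35.2 and 29.3 by 1 h, 51.5 and 31.6 by 2 h, and 12.2 and 16.3 by 4 h. Its later values were 69.3 and 36.4 by 8 h, 3.86 and 4.46 by 12 h, 19.4 and 24.4 by 24 h, and 2.04 and 3.54 after 48 h. Cre18.g748750 shared this course with 65.6 and 37.5 RPKM at 8 h, against 12.9 and 16.96 by 4 h, and was called higher at 8 h than at 0.5 to 2 h as well, by 1.10 ± 0.24 (limma adjusted p = 0.0013). Without duplicate 1 of 8 h this change was 0.71, and without duplicate 2 of 2 h 0.98, under 2-fold in each case. In all 3, duplicate 1 was higher than duplicate 2 at 2 and 8 h. The other member higher at 8 h than at 0.5 to 2 h was Cre10.g458850, which had 4.21 and 6.43 RPKM at 0 h, 1.503 and 1.14 by 0.5 h, 0.416 and 0.911 by 1 h, 0.312 and 0.351 by 2 h, and 1.31 and 2.72 by 4 h. At the later times it had 4.57 and 3.48 by 8 h, 1.11 and 0.874 by 12 h, 18.7 and 17.01 by 24 h, and 0.367 and 0.411 after 48 h. It stood highest at 24 h.

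Steep falls at 8 h were seen in Cre02.g120600, Cre02.g101700 and Cre12.g503900. Cre02.g120600 had 28.9 and 17.03 RPKM at 0 h, 39.8 and 33.6 by 0.5 h, 40.4 and 37.4 by 1 h, 57.2 and 42.7 by 2 h, and 39.3 and 22.9 by 4 h. It then stood at 6.32 and 4.32 by 8 h, 4.57 and 4.59 by 12 h, 37.6 and 24.6 by 24 h, and 1.34 and 0.461 after 48 h. Its change at 8 h against 4 h was -2.31 ± 0.17 (limma adjusted p = 1.7e-06). After the high values at 24 h, it was lower at 48 h than at 12 h in both duplicates. The hypothetical proteins Cre02.g101700 and Cre12.g503900 changed by -2.28 ± 0.24 and -2.14 ± 0.20 (limma adjusted p = 1.4e-05 and 6.7e-06). Cre12.g532327 had 9.36 and 14.04 RPKM at 0 h, 11.3 and 20.9 by 0.5 h, 15.6 and 15.6 by 1 h, 17.4 and 19.4 by 2 h, and 7.27 and 5.53 by 4 h. The later samples gave 1.195 and 1.75 by 8 h, 1.02 and 1.34 by 12 h, 7.63 and 7.18 by 24 h, and 4.32 and 6.64 after 48 h. Its change at 8 h against 0.5 to 2 h was -2.82 ± 0.18 (limma adjusted p = 2.8e-08).

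The 2 members named here for large falls at 48 h had not been called at 8 h. This did not hold for all large falls. Cre02.g120600, given above, changed by -4.51 at 48 h against 0.5 to 2 h and was called lower at 8 h, at -2.76. Cre17.g717900 had 296 and 217 RPKM at 0 h, 366 and 321 by 0.5 h, 472 and 473 by 1 h, 261 and 309.8 by 2 h, and 398 and 425 by 4 h. The remaining times gave 357 and 246 by 8 h, 50.9 and 55.4 by 12 h, 490.3 and 610.1 by 24 h, and 4.54 and 8.59 after 48 h. Its 8 h values overlapped those of 0.5 to 2 h, and its 48 h values lay under those at 12 h, at -5.62 ± 0.19 against 0.5 to 2 h (limma adjusted p = 2.2e-11). Cre18.g743550 had 61.7 and 53.01 RPKM at 0 h, 58.2 and 53.9 by 0.5 h, 70.9 and 75.6 by 1 h, 32.6 and 40.8 by 2 h, and 58.6 and 66.9 by 4 h. Thereafter it had 52.999 and 39.4 by 8 h, 6.91 and 8.09 by 12 h, 69.3 and 86.2 by 24 h, and 1.11 and 1.597 after 48 h. It changed by -4.53 ± 0.13 at 48 h against 0.5 to 2 h (limma adjusted p = 6.2e-12). In both, 12 h and 48 h were low and 24 h held the highest value of the course. Over the 122 members called lower at 48 h, the median log2 change from 0 h was -1.17 after 8 h, -2.22 after 12 h and -1.79 after 48 h. The 48 h value follows from the call that picked them, and the 12 h value from the choice of members.

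The opposite end held members that were highest at 48 h. Cre06.g286950 had 16.1 and 14.7 RPKM at 0 h, 21.3 and 21.5 by 0.5 h, 16.8 and 15.2 by 1 h, 7.37 and 8.102 by 2 h, and 6.38 and 6.204 by 4 h. Its later values were 2.35 and 2.34 by 8 h, 4.32 and 4.01 by 12 h, 30.4 and 27.2 by 24 h, and 69.5 and 53.7 after 48 h. It was lowest at 8 h, and 48 h exceeded 8 h by 4.21 ± 0.11 (limma adjusted p = 3.3e-12). Cre02.g137950 had 10.7 and 5.56 RPKM at 0 h, 15.6 and 15.4 by 0.5 h, 24.7 and 24.2 by 1 h, 20.8 and 24.6 by 2 h, and 12.5 and 14.99 by 4 h. At the later times it had 5.497 and 5.72 by 8 h, 1.65 and 2.58 by 12 h, 20.1 and 24.2 by 24 h, and 91.5 and 129 after 48 h. It changed by 4.05 ± 0.23 at 48 h against 8 h (limma adjusted p = 4.9e-09). Cre01.g036700 had 16.98 and 12.9 RPKM at 0 h, 7.28 and 7.57 by 0.5 h, 9.58 and 8.55 by 1 h, 7.62 and 8.899 by 2 h, and 5.87 and 5.902 by 4 h. It then stood at 4.58 and 4.31 by 8 h, 4.97 and 4.202 by 12 h, 21.8 and 17.7 by 24 h, and 50.9 and 54.3 after 48 h. It changed by 2.54 ± 0.11 at 48 h against 0.5 to 2 h (limma adjusted p = 1.3e-10). Over the 23 members called higher at 48 h than at 0.5 to 2 h, the median log2 change from 0 h was -0.77 after 2 h and 0.91 after 48 h. Both values are from times that this call compared, so they describe it only.

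Depth of the dip, the smaller of the differences of 12 h from 0 h and from 24 h, had a median of 1.80 log2 units and exceeded 2 in 92 members and 2.5 in 29. With at least 300 reads, the deepest was 4.08 in the hypothetical protein Cre03.g176150, which had 195 and 174 RPKM at 0 h, 159.6 and 135 by 0.5 h, 58.3 and 74.04 by 1 h, 39.8 and 43.97 by 2 h, and 51.1 and 51.5 by 4 h. The later samples gave 48.6 and 41.2 by 8 h, 9.13 and 10.2 by 12 h, 201 and 158 by 24 h, and 6.82 and 5.73 after 48 h. Its values at 48 h lay under those at 12 h. Cre17.g705300, with a dip of 3.67, had 91.4 and 63.5 RPKM at 0 h, 81.8 and 63.2 by 0.5 h, 36.1 and 41.5 by 1 h, 40.8 and 41.96 by 2 h, and 36.2 and 38.3 by 4 h. The remaining times gave 28.9 and 24.5 by 8 h, 4.101 and 4.04 by 12 h, 63.3 and 63.6 by 24 h, and 1.69 and 2.56 after 48 h. It was likewise lower at 48 h than at 12 h. The value of 4.99 in Cre16.g662704 rested on 5 recovered reads in all columns together, 3 of them in duplicate 2 at 0 h. There it was listed at 94.7 RPKM, and it was listed at 0 in duplicate 1 at every time. These reads are the smallest whole numbers that fit its values. They imply a length of 1.001 bases, so they may be too low. The most abundant member, Cre33.g782300, had 1693 and 1535 RPKM at 0 h, 887 and 711 by 0.5 h, 731 and 597 by 1 h, 523 and 334 by 2 h, and 574 and 169.6 by 4 h. Thereafter it had 329.9 and 105 by 8 h, 246 and 48.5 by 12 h, 658 and 232 by 24 h, and 280.03 and 112 after 48 h. Its duplicates differed over 2-fold from 4 to 48 h, and duplicate 2 was lower throughout.

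Just inside the threshold lay Cre03.g184500, with a dip of 1.501, and Cre45.g788355, with 1.503. Just outside it were Cre17.g707300, with 1.498, and Cre03.g160300, with 1.496. Cre17.g707300 had 17.2 RPKM at 0 h, 4.02 after 12 h and 13.2 after 24 h, as means of both duplicates.

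In the RefSeq annotation of assembly Chlamydomonas_reinhardtii_v5.5, 214 members could be matched by their locus tags. Of these, 8 lay next to another member, in 4 pairs. Whether this count exceeds what the density of members alone would give was not tested. It leaves out any neighbours among members that could not be matched. Cre18.g748500, Cre18.g748750 and Cre18.g748800, which have close locus numbers and shared a course, were in none of the 4 pairs. Whether they lie side by side is not shown here. Cre13.g580850, whose course was close to that of the plastid ribosomal genes, lay beside Cre13.g580900. The courses of this pair correlated at 0.67 over all times, the times of the choice among them. In the 4 pairs this correlation ran from 0.66 to 0.96. Whether counting used the strand is not given in the sources used here, so reads of overlapping neighbours cannot be told apart.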

How the data were processed

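The deposited table holds 17301 transcripts and 18 columns of RPKM values, as deposited by the authors, with 0 columns left unused. No unit stands in the header; it was inferred because values are whole reads over length and depth. Per the submitters' processing notes, Bowtie was the aligner; for its version, the genome build and the counting tool, the sources used here say nothing. Near-identical gene copies may share reads.

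The members, the lists and the tests were chosen with earlier results of these data known. Whole reads were recovered for 16666 transcripts (96.3%, within 0.05 reads) (Python 3.11.15, pandas 2.3.3, numpy 2.4.6) and used only for depth. A value of 0 allows up to 3 reads at 95% confidence, 0.0392 to 0.0984 RPKM at the median length of 2269 bases, which covers counting error only.

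Transcripts with at least 1 RPKM at 3 or more times (13077) were fitted with limma-trend (limma 3.58.1, R 4.3.3) on log2(RPKM + 1), with time as a factor, the duplicate number as a block and 8 residual degrees of freedom. P-values were adjusted by Benjamini-Hochberg over all of them. Duplicates were paired by the number in each column name. The differences between duplicates correlated at 0.315 to 0.726 over 36 pairs of times, with a median of 0.503. On simulated data, for 8 h against 0.5 to 2 h with 13077 transcripts, 50 of 50 were recovered at each of 4 changes, of 1.5 and 2 log2 units in either direction, with 0 false calls. The changed transcripts had a mean log2 value over 2, and the noise was normal and independent, with no other effect of time. Weak transcripts and changes near 2-fold were therefore not covered.

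Function classes followed keywords in the deposited descriptions. Genes named in the text were the most abundant of each class, the deepest dips, the largest changes per comparison, those beside the threshold and those most and least like the plastid ribosomal course, with at most 2 undescribed transcripts for each of these. Likeness is Pearson's r over time means. Alternatives were median centring, pseudocounts of 0.1, 0.5 and 5, filters, an adjusted p of 0.01, no minimum fold, no block and each column left out. A search of promoters was not run, as no sequence was at hand.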

Additional observations from a re-analysis of the deposited data

How the results depend on the processing

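The number of members followed the scale on which a dip is measured. It was 291 as defined, 116 after median centring, 561 with a pseudocount of 0.1 RPKM, 78 with 5 RPKM, 730 for a dip of 1 log2 unit and 92 for a dip of 2. A smaller pseudocount gives more weight to weak transcripts by its construction. Other definitions, each duplicate alone among them, stayed within 1.5 times. Without a minimum fold the members called lower and higher were 180 and 15 at 4 h against 0.5 to 2 h, 233 and 6 at 8 h against 4 h, 200 and 45 at 48 h against 0.5 to 2 h, and 73 and 172 at 48 h against 8 h, and 6 were higher at 8 h against 0.5 to 2 h. A pseudocount of 5 RPKM left 4 lower at 4 h against 0.5 to 2 h, 52 lower at 8 h against 4 h, 128 lower and 0 higher at 8 h against 0.5 to 2 h, 20 lower and 66 higher at 48 h against 8 h, and 77 lower at 48 h against 0.5 to 2 h. At 4 h against 0.5 to 2 h, median centring gave 5 lower and 2 higher, and pseudocounts of 0.1 and 0.5 gave 1 higher each. A filter of 5 RPKM left 1 higher at 8 h against 0.5 to 2 h. Shares of all tested transcripts under the settings of this section are not given, so its counts show only how the calls of members moved.

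With each column left out in turn, the members lower and higher were 10 to 16 and 0 to 2 at 4 h against 0.5 to 2 h, 113 to 137 and 3 to 4 at 8 h against 4 h, 194 to 199 and 1 to 4 at 8 h against 0.5 to 2 h, 43 to 53 and 101 to 109 at 48 h against 8 h, and 119 to 127 and 22 to 25 at 48 h against 0.5 to 2 h. Where that leaves a time with 1 column, it is assumed to vary like the others. Without the duplicate block, 196 members were lower at 8 h against 0.5 to 2 h, and no count left the range of 1.5 times. Over 103 tested changes of 37 named members and 2573 alternatives, 2522 kept their direction and their side of the threshold, 51 fell below it and 0 reversed. Of the 51, 28 were with a pseudocount of 5 RPKM, 11 with median centring and 12 with a column left out, and the cause was not tested. Restricted to members with at least 300 reads, 195 were lower at 8 h against 0.5 to 2 h.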
